A study of Mus musculus with 18 samples.

Results

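The genes that encode voltage-gated sodium and calcium channels were described in frontal cortex of mice of 3 genotypes. They were chosen by name alone, as every gene whose symbol starts with Scn and a digit or with Cacn, without pseudogenes, which gave 40 of the 55487 genes counted. The 40 genes comprise 10 sodium channel alpha, 4 sodium channel beta, 10 calcium channel alpha1, 4 alpha2delta, 4 calcium channel beta and 8 gamma subunits. The samples are bulk mRNA of 18 mice aged 9 to 10 months, 6 per genotype with 3 females and 3 males each. APP/PS1 mice carry the transgenes of the line of that name, which is used to model amyloid deposition. APP/PS1/FTnKO mice carry the same transgenes and lack the beta subunit of protein farnesyltransferase (FT) in forebrain neurons, where a CaMKIIα promoter drives Cre after birth, so the other cells of the cortex keep the gene. According to the methods all 3 genotypes, the WT littermates included, are homozygous for the floxed FT allele and only the knockout carries Cre, while the record of the data gives the WT mice as C57BL/6J, so their background is not settled.

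Voltage-gated channels let ions through a pore that opens when the membrane depolarizes. In sodium channels the alpha subunit forms the pore that carries the rising phase of the action potential, and the beta subunits are small membrane proteins that set its gating and placement. In calcium channels the alpha1 subunit forms the pore, while alpha2delta and the intracellular beta subunits bring it to the membrane. Most of the gamma subunits in brain are instead TARPs, auxiliary proteins of AMPA-type glutamate receptors.

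Each mouse had 15925432 to 21030935 counts in total. Fntb, which encodes the deleted FT subunit, ranged from 7.84 to 14.7 normalized CPM (counts scaled to a fixed total per library) in the knockout mice, from 14.2 to 32.1 in APP/PS1 and from 14.1 to 32.2 in WT, so the highest knockout mouse just reached the others. WT mouse 19622, which had a sum of 4034 CPM over 9 cerebellar markers against 39.8 to 78.9 in the other mice, was treated apart, and values are for the remaining 17 mice, of which 5 are WT, unless stated. All 6 excitatory neuron and 7 interneuron markers, which define the neurons of cortex, had counts in each of the 17 mice. In bulk tissue, fewer cells of a type and less RNA per cell cannot be told apart.

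Of the 40 genes, 36 passed the filter on low counts and were tested among 17414 genes. Scn4a, the skeletal muscle sodium channel, Scn11a, of sensory neurons, Cacna1f, the retinal L-type channel, and Cacng1, the skeletal muscle gamma subunit, did not pass, with 14, 49, 101 and 79 counts in all 17 mice together. To order genes by level, normalized CPM were divided by the length of the exons in kb, counting each base of any annotated exon once. This length can exceed that of the transcripts present, which lowers the level of genes with many alternative exons. Cacna1e, with 425 CPM over 25.2 kb, thus stands below Cacna1b, with 177 CPM over 9.94 kb. The order under other lengths was not tested.

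Among the sodium channel alpha subunits, 3 genes carried most of the level per length. Scn8a, the channel of axon initial segments and nodes, stood at 25.2 ± 3.25 CPM per kb (SD, n = 17), and Scn2a, of excitatory neurons, at 25.1 ± 3.92, so their order is not resolved. Scn1a, prominent in parvalbumin interneurons, had 15.1 ± 1.99, and Scn3a, known best from the developing brain, had 5.09 ± 0.636. The remaining alpha genes were low: Scn7a, a sodium-sensing relative of the family, had 0.580 ± 0.136 CPM per kb and Scn9a, of sensory neurons, 0.551 ± 0.160. Scn10a, also of sensory neurons, was barely above the filter, with 3 to 24 counts per mouse.

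Among the sodium channel beta subunits, Scn4b had 77.9 ± 26.6 CPM per kb (SD, n = 17) with a range of 34.9 to 131, Scn2b had 60.6 ± 8.78 and Scn3b had 23.3 ± 2.65. The values of Scn4b and Scn2b overlapped.

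The calcium channel alpha1 genes were more even. Those of the release-triggering channels of nerve terminals led, with Cacna1b (N-type) at 17.8 ± 1.26, Cacna1e (R-type) at 16.8 ± 1.77 and Cacna1a (P/Q-type) at 15.1 ± 0.864 CPM per kb, and Cacna1b and Cacna1e differed by less than their spread. The T-type genes, whose channels open at low voltage, followed together, with Cacna1g at 12.5 ± 1.898, Cacna1i at 12.2 ± 1.60 and Cacna1h at 11.9 ± 1.31, and were not separated from each other. Of the L-type genes, Cacna1d had 7.41 ± 0.845 and Cacna1c 5.79 ± 0.770, and Cacna1s, the channel of skeletal muscle, had 0.230 ± 0.0808. Cacna1b, the highest, held 17.9% of the class.

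In the auxiliary calcium channel classes 1 gene stood out more. Cacna2d1 held 41.8% of the alpha2delta level, with 17.01 ± 2.21 CPM per kb, ahead of Cacna2d3 (12.1 ± 1.96), Cacna2d2 (11.1 ± 2.28) and Cacna2d4 (0.396 ± 0.0987). Cacnb3 held 51.8% of the beta level, with 68.7 ± 6.92, ahead of Cacnb1 (34.2 ± 3.21), Cacnb4 (26.0 ± 3.32) and Cacnb2 (3.89 ± 0.383). In the gamma class the TARP genes Cacng7 (76.0 ± 5.89) and Cacng3 (38.9 ± 3.38) were highest. Cacng8 (17.4 ± 1.80), Cacng4 (15.2 ± 2.42) and Cacng2 (14.4 ± 1.12), the last known as stargazin, lay close together, and Cacng5 (5.57 ± 1.60) and Cacng6 (0.844 ± 1.21) were low. The plot of levels per length shows these classes by mouse.

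**Figure D1:**
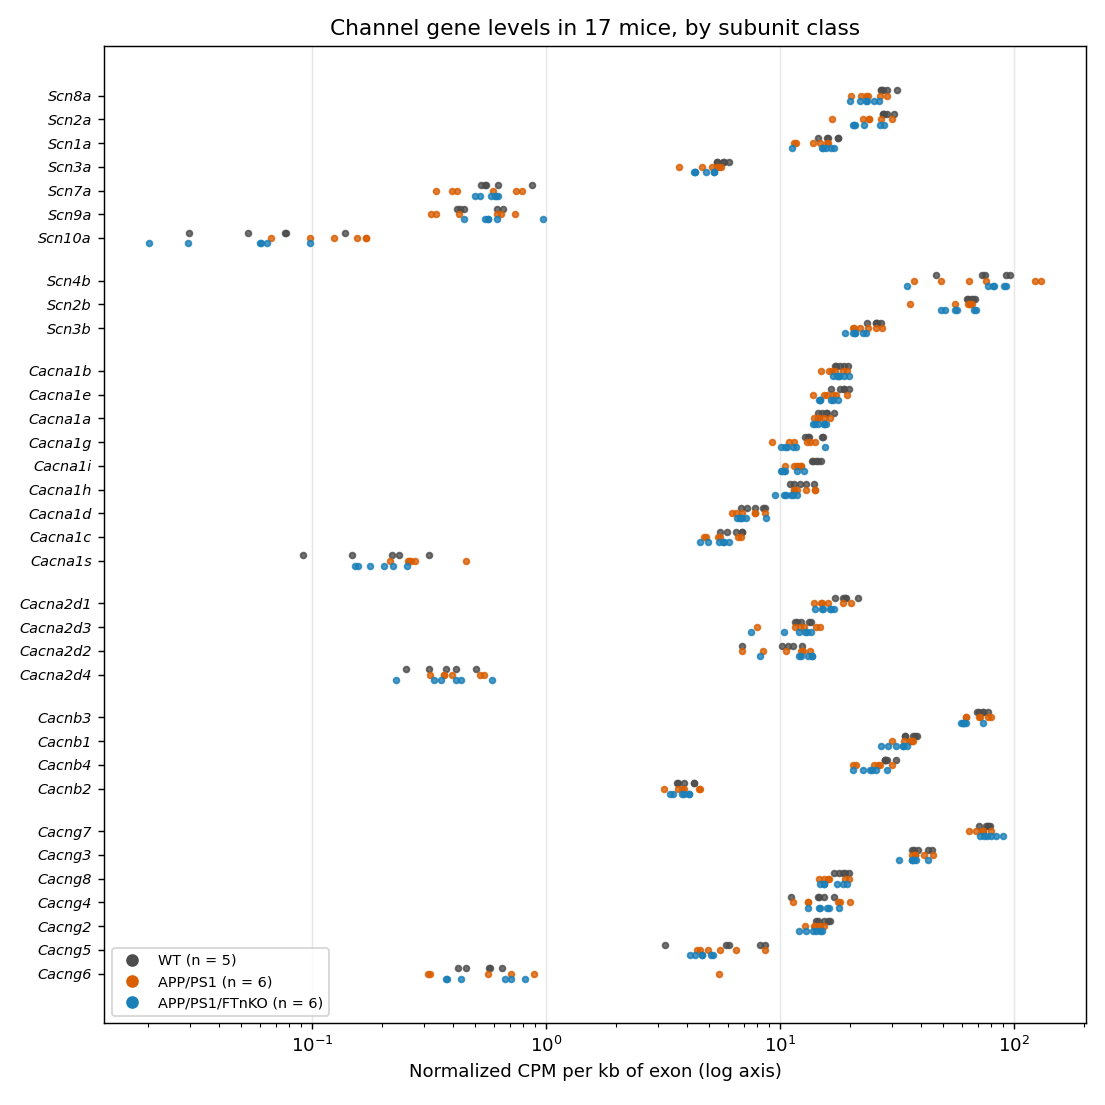
Level of 34 of the channel genes that passed the filter, in normalized CPM per kb of exon on a log axis, with 1 point per mouse for 5 WT, 6 APP/PS1 and 6 APP/PS1/FTnKO mice, grouped by subunit class and ordered by mean level. The genotypes overlap for most genes, and Scn4b and the low genes spread most between mice.

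The spread between mice was that of an ordinary gene, with a median coefficient of variation of 13.1% over the 36 genes and 13.0% over all genes tested. Cacna1a was the steadiest of the 36, with 5.72%, and Cacna1b followed with 7.06%. The widest spread was that of the low genes Cacng6 (144%), Scn10a (55.0%) and Cacna1s (35.1%), and then of Scn4b, an abundant gene, with 34.2%.

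The knockout question was asked by APP/PS1/FTnKO against APP/PS1 mice. With edgeR's quasi-likelihood test adjusted over all genes, none of the 36 genes was called, where 0.327% of all genes were called (0.144% lower and 0.184% higher). In 0 of the 36 did the groups fail to overlap, which 0.97% of all genes did (0.373% lower and 0.597% higher). At an unadjusted p under 0.05, which 11.5% of all genes reached (5.69% lower and 5.82% higher), there were 5 genes with lower and 1 with higher values in the knockout. DESeq2 called 1 gene, Scn10a, where it called 1.38% of all genes, 0.738% as lower. With all 18 mice edgeR called 0 of the 36 and 0.0116% of all genes. Log2 fold changes were below 0 for 27 of the 36 genes, against 50.5% of all genes, with a median of -0.05. As each mouse was left out the number below 0 was 22 to 29. The median was -0.095 without APP/PS1 mouse 16975 and -0.08 without APP/PS1/FTnKO mouse 18973, but -0.03 without APP/PS1 mouse 19619 or 19744 or APP/PS1/FTnKO mouse 19720. It was -0.09 with the RNA integrity number as a covariate.

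Scn10a had the smallest p. It had 0.533 to 1.35 CPM (median 1.12) in APP/PS1 and 0.160 to 0.778 (median 0.481) in APP/PS1/FTnKO mice, with 0.237, 0.427, 0.611, 0.620 and 1.10 in WT mice. The groups overlapped, and 1 knockout mouse exceeded the lowest APP/PS1 mouse. The log2 fold change was -1.24 (SE 0.295), with an adjusted p of 0.0801 by edgeR and 0.0297 by DESeq2. These values rest on 3 to 24 reads per mouse.

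Cacna1h, a T-type channel, had 112 to 138 CPM (median 121) in APP/PS1 and 92.6 to 116 (median 106) in APP/PS1/FTnKO mice, a log2 fold change of -0.22 (SE 0.071, adjusted p = 0.215). Its groups overlapped between 112 and 116. Both leading beta subunits, which bind the alpha1 pore from the inside, had the same sign, with Cacnb3 at 284 ± 29.5 and 252 ± 21.3 CPM (SD, n = 6 each, -0.17, SE 0.057, adjusted p = 0.264) and Cacnb1 at 159 ± 11.8 and 143 ± 13.9 (-0.15, SE 0.066, adjusted p = 0.393). With the summed level of the excitatory neuron markers as a covariate the value of Cacnb3 was -0.07 and that of Cacnb1 -0.04. Cacna1s had -0.56 (SE 0.257, adjusted p = 0.410), and -0.36 without APP/PS1 mouse 16975, which had 2.98 CPM. Cacng7 was the gene with a higher value, at 177 ± 12.9 in APP/PS1 and 194 ± 16.5 in the knockout (0.13, SE 0.054, adjusted p = 0.351). None of these passed the test.

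**Figure D2:**
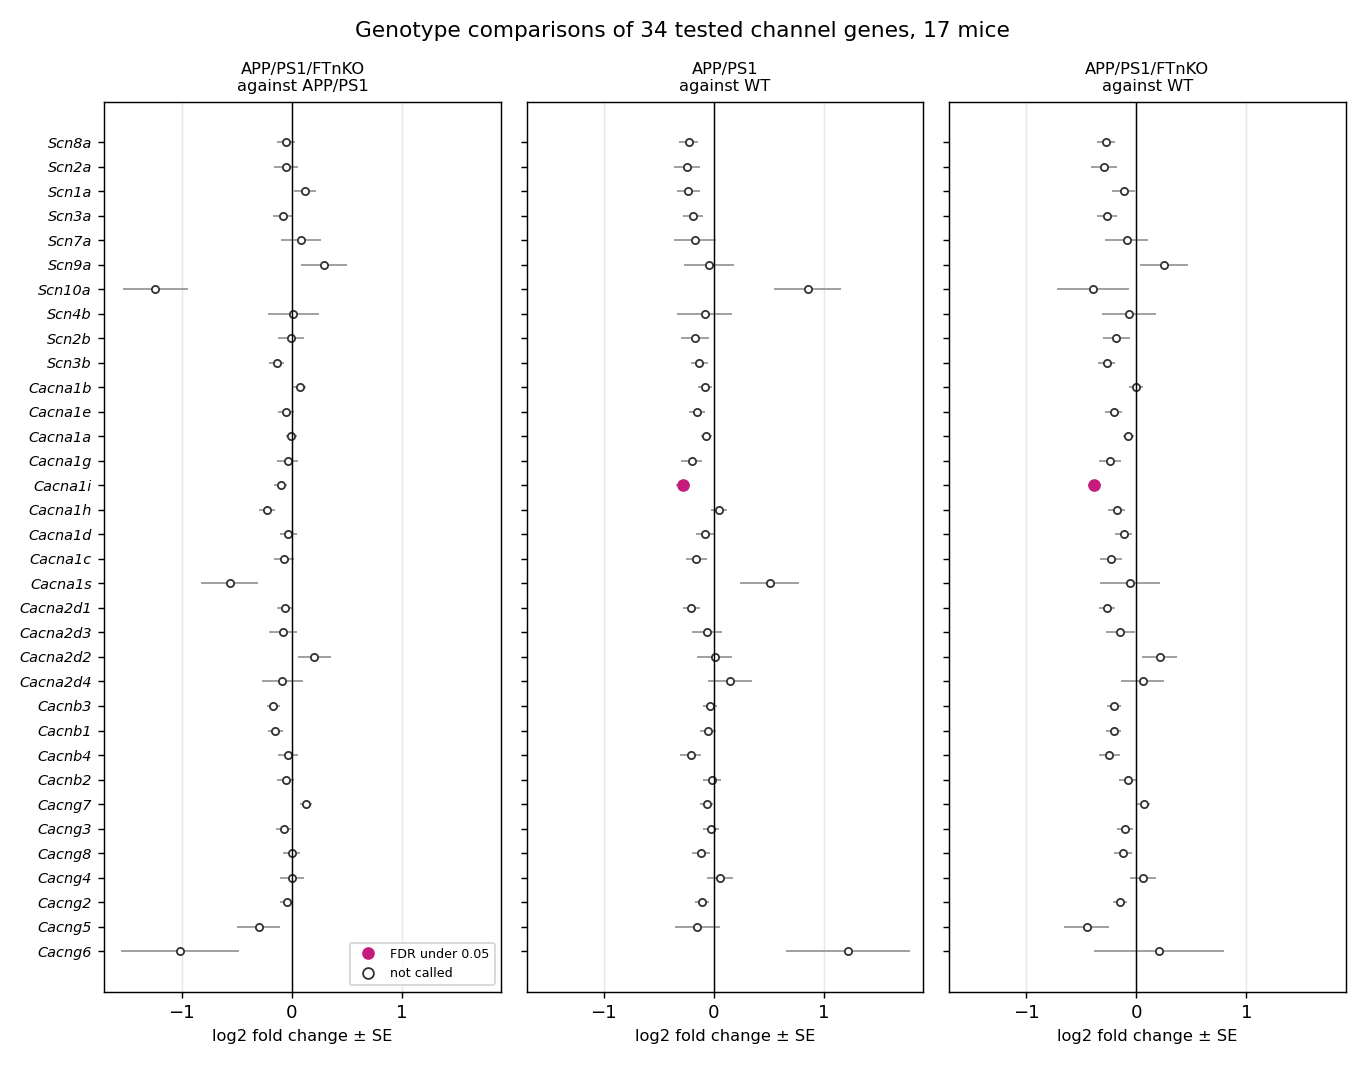
Log2 fold change with its SE for 34 of the tested channel genes in the 3 genotype comparisons over 17 mice, ordered by class and level, with filled points for an adjusted p under 0.05. Cacna1i is the called gene in both comparisons with WT, at -0.28 and -0.38, and most points of the right panel lie below 0.

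Cacna1i was the channel gene that differed between the transgenic genotypes and WT. The gene encodes a T-type calcium channel known for slow gating and for burst firing, above all in the thalamic reticular nucleus, and lies on the plus strand of chromosome 15 at chr15:80287238-80398279 (GRCm38), sharing no exon bases with another annotated gene. The WT mice had 135, 136, 141, 144 and 148 CPM. APP/PS1 mice had 104 to 122 (median 117) and APP/PS1/FTnKO mice 99.6 to 125 (median 103). Each WT mouse was above each mouse of both other genotypes, which overlapped each other.

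Against WT, APP/PS1 mice were 17.8% lower (log2 fold change -0.28, SE 0.061, edgeR adjusted p = 0.0238) and APP/PS1/FTnKO mice 23.2% lower (-0.38, SE 0.061, adjusted p = 0.00306). Both comparisons use the same 5 WT mice. Between the transgenic genotypes the difference was -0.10 (SE 0.059, 95% interval -0.22 to 0.03, adjusted p = 0.574). The call against WT in the knockout held in 29 of 30 alternative settings and failed with the excitatory neuron markers as a covariate (-0.35, adjusted p = 0.0888). That of APP/PS1 mice held in 20 of 30. It was lost with all 18 mice by edgeR (-0.23, adjusted p = 0.172) and by DESeq2 (adjusted p = 0.114), and with the RNA integrity number as a covariate (-0.23, adjusted p = 0.236). It was also lost without the 2 mice of lowest RNA integrity. Dropping any one of APP/PS1 mice 16975, 19554 and 19723 or WT mice 18944, 19053 and 19721 lost it as well (edgeR adjusted p up to 0.112). RNA integrity was lower in APP/PS1 than in WT mice, with medians of 8.2 and 8.7, and was 8.6 in the knockout.

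**Figure D3:**
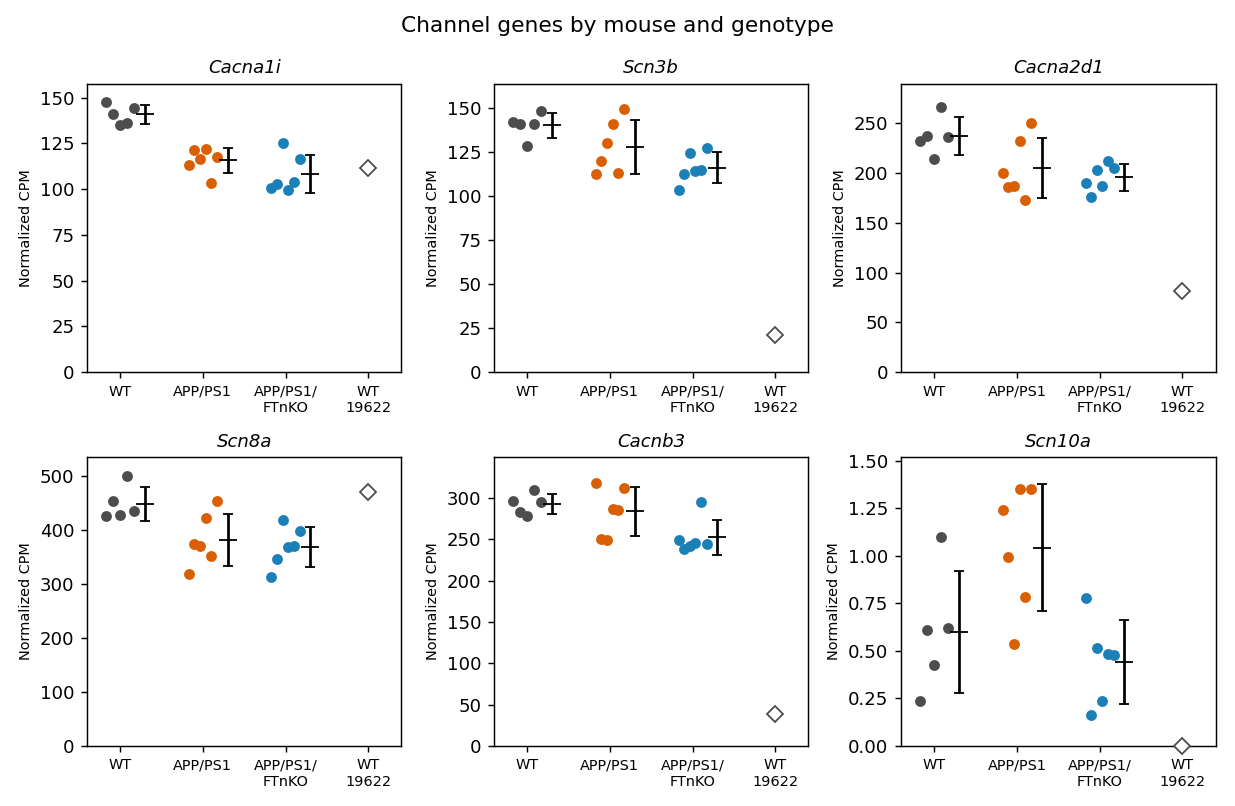
Normalized CPM of 6 channel genes in each mouse by genotype, with the group mean and SD beside the points (5 WT, 6 APP/PS1 and 6 APP/PS1/FTnKO mice) and WT mouse 19622 as an open diamond, scaled with all 18 mice. For Cacna1i the 5 WT mice lie at 135 to 148, above the other 12 mice, and 19622 lies at 112, while for Scn3b, Cacna2d1 and Cacnb3 it lies far below every other mouse.

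The 250 bases upstream of the annotated starts of Cacna1i and of Cacna2d1, the abundant alpha2delta gene whose groups also did not overlap in the knockout comparison with WT, are shown since both genes had lower levels there, from RefSeq on GRCm38.p6, 5′ to 3′ on the plus strand, at chr15:80286988-80287237 and chr5:15934441-15934690. Capitals mark the GC box GGGCGG and TGACG, the first letters of the cAMP response element TGACGTCA, on either strand.
Cacna1i: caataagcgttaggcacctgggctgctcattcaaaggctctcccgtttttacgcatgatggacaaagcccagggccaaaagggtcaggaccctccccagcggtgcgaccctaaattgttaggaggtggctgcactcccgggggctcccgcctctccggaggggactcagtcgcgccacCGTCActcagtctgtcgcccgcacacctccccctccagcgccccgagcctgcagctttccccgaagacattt
Cacna2d1: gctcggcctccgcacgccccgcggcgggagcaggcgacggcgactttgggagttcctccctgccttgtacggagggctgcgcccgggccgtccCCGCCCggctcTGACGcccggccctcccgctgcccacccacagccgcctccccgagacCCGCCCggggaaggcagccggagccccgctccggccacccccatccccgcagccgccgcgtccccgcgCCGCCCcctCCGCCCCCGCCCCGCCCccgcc
The Cacna1i window held 1 TGACG and 0 GC boxes with a GC content of 62.4%, and that of Cacna2d1 held 1 TGACG and 6 GC boxes with 82.4%. Entries were found for 30 of the 40 genes, with 41 windows. The GC box was in 36.6% of them and in 32.7% of all 32851 windows, and TGACG in 14.6% and 17.8%. The 8-letter TGACGTCA was in 0% of the windows of the channel genes and 1.55% of all. These are matches of letters in the windows.

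The disease model question was asked by APP/PS1 against WT mice. Cacna1i was the single call among the 36 genes, where 1.5% of all genes were called (0.178% lower and 1.32% higher). DESeq2 called 2.14% of all genes, 0.366% as lower, and edgeR with 18 mice called 0 of the 36 and 1.2% of all. The groups did not overlap in 1 of the 36 genes, Cacna1i, and in 2.4% of all (0.695% lower and 1.71% higher). At an unadjusted p under 0.05, 6 genes had lower and 2 higher values in APP/PS1 mice, where 14% of all genes reached it (6.05% lower and 7.91% higher). The log2 fold change was below 0 for 28 of the 36 genes, against 50.6% of all, with a median of -0.08. With 19622 among the WT mice it was below 0 for 19 of 36 with a median of -0.02, and with the RNA integrity number as a covariate for 25 of 36 with a median of -0.05. Leaving out each mouse gave 24 to 30 genes below 0, with 24 without APP/PS1 mouse 16975.

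Besides Cacna1i, 5 genes had lower values at an unadjusted p under 0.05 and did not pass the test. In WT and APP/PS1 mice, Scn8a had 448 ± 30.9 (SD, n = 5) and 382 ± 49.0 CPM (n = 6, log2 fold change -0.23, SE 0.085, adjusted p = 0.238). Scn2a had 364 ± 17.5 and 307 ± 57.0 (-0.25, SE 0.116, adjusted p = 0.353). With the RNA integrity number as a covariate the value of Scn8a was -0.07 and that of Scn2a -0.08, and without APP/PS1 mouse 16975 that of Scn2a was -0.15. Scn1a had 183 ± 14.6 and 156 ± 22.4 (-0.23, SE 0.105, adjusted p = 0.329). The auxiliary calcium channel subunits were Cacna2d1, at 237 ± 19.1 and 205 ± 30.1 (-0.20, SE 0.074, adjusted p = 0.217, and -0.10 with the RNA integrity number), and Cacnb4, at 259 ± 13.1 and 224 ± 32.8 (-0.21, SE 0.094, adjusted p = 0.326). With 19622 among the WT mice Cacna2d1 had -0.04 and Scn1a -0.42. In each of these genes the spread was wider in APP/PS1 than in WT mice, and the groups overlapped. The higher values were in 2 genes near the filter, Scn10a (0.85, SE 0.302, adjusted p = 0.210) and Cacng6 (1.22, SE 0.565, adjusted p = 0.345). For Cacng6 the value rests on APP/PS1 mouse 16975 with 10.9 CPM, against 0.621 to 1.76 in the other 5, and without this mouse it was 0.12.

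In APP/PS1/FTnKO against WT mice, the lower values were spread over more genes. Cacna1i was again the single edgeR call, where 3.87% of all genes were called (1.65% lower and 2.22% higher). With 18 mice it was called as well, with 1.51% of all genes. At an unadjusted p under 0.05 there were 15 lower and 0 higher genes, 41.7% of the 36, while 22.1% of all genes reached it (10.9% lower and 11.3% higher). The log2 fold change was below 0 for 29 of 36 genes, against 48.7% of all genes, with a median of -0.13. All 9 alpha1 genes and all 4 calcium channel beta genes had values below 0. With 19622 among the WT mice the value was below 0 for 21 of 36 genes with a median of -0.05, and Cacnb3, Cacnb1 and Cacna1h turned to values above 0 (0.035, 0.013 and 0.072).

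The groups did not overlap in 5 genes, each lower in the knockout, where 5.6% of all genes did so (2.85% lower and 2.75% higher). They were Cacna1i, Scn3b, Cacna2d1, Scn8a and Scn3a. Scn3b, a beta subunit, had 129, 141, 141, 142 and 148 CPM in WT and 104 to 128 (median 115) in APP/PS1/FTnKO mice, a log2 fold change of -0.27 (SE 0.074, adjusted p = 0.0514). The gap between the groups was small, and the highest knockout mouse came next to the lowest WT mouse. Cacna2d1, the subunit that gabapentin binds, had 214, 232, 236, 238 and 267 CPM in WT and 176 to 212 (median 197) in the knockout, 16.8% lower (-0.26, SE 0.074, adjusted p = 0.0530). Here too the groups were apart by little. Scn8a had 425, 427, 436, 453 and 499.96 CPM in WT and 313 to 418 (median 369.6) in the knockout, 17.4% lower (-0.28, SE 0.085, adjusted p = 0.0767). Scn3a had 67.2 to 75.7 (median 71.0) in WT and 53.7 to 65.2 (median 57.4) in the knockout (-0.27, SE 0.090, adjusted p = 0.0975). With 19622 among the WT mice the value was -0.03 for Scn3b, -0.095 for Cacna2d1 and -0.08 for Scn3a.

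DESeq2 called 5 genes lower in this comparison, where it called 7.67% of all genes and 3.76% as lower. These were Cacna1i, Cacna2d1, Cacnb3, Scn3b and Scn8a. Cacnb3 had 279, 283, 295, 297 and 310.0 CPM in WT and 238 to 295 (median 245) in the knockout (-0.20, SE 0.060, adjusted p = 0.0669 by edgeR and 0.0231 by DESeq2). In the knockout 5 of the 6 mice were below every WT mouse, and mouse 19720 was within the WT range. The edgeR count of 1 gene moved between 1 and 6 as each mouse was left out, with 6 without APP/PS1 mouse 16975, 3 without WT mouse 19101, APP/PS1/FTnKO mouse 19722 or APP/PS1 mouse 19723 or 19744, and 2 without APP/PS1/FTnKO mouse 18973 or 19720 or APP/PS1 mouse 19619. The share of all genes called moved in these fits as well, between 1.17% and 5.69%. It was 5.67% in the fit with 6 channel genes, 3.48%, 4.76%, 3.56% and 4.66% in those with 3, and 5.69%, 2.51% and 4.02% in those with 2, in the order given.

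The other genes with an unadjusted p under 0.05 had log2 fold changes of -0.15 to -0.45 and adjusted p from 0.0993 to 0.204. They were the beta subunits Cacnb1 (-0.20, SE 0.069) and Cacnb4 (-0.24, SE 0.094), the pore genes Cacna1e (-0.20, SE 0.076), Cacna1g (-0.24, SE 0.097), Cacna1h (-0.18, SE 0.074), Cacna1c (-0.23, SE 0.097) and Scn2a (-0.29, SE 0.116), and the TARP genes Cacng2 (-0.15, SE 0.063) and Cacng5 (-0.45, SE 0.204). Without WT mouse 18944 the value of Cacna1g was -0.16 and that of Cacng5 -0.28. With 19622 back among the WT mice Cacna1e had -0.08, Cacna1g -0.50 and Cacng2 -0.28. The abundant Cacna1b was near 0, at -0.01 (SE 0.062, 95% interval -0.14 to 0.13).

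Of the 36 genes, 16 had no unadjusted p under 0.05 in any comparison. Going from WT to APP/PS1 and then the knockout, Cacna1b had 181 ± 10.1, 171 ± 15.89 and 180.2 ± 9.91 CPM, Cacna1a had 179 ± 10.3, 170.2 ± 9.40 and 169.9 ± 9.08, and Cacna1d had 98.6 ± 9.998, 92.5 ± 11.8 and 90.2 ± 10.3. Cacng3 had 112 ± 9.66, 109 ± 8.83 and 104 ± 9.65, and Cacng8 had 43.3 ± 2.41, 39.6 ± 4.77 and 39.6 ± 4.46. Scn2b had 305 ± 10.4, 273 ± 54.3 and 272 ± 39.3, with all of its WT mice within 294 to 319, and the groups of each of the 16 genes overlapped in every comparison. The spread of Scn2b was wider in both other genotypes than in WT. Among the alpha2delta genes Cacna2d3 had 109 ± 7.76, 107 ± 21.2 and 101 ± 19.9, Cacna2d2 had 82.2 ± 16.7, 85.1 ± 20.4 and 97.1 ± 16.4, and Cacna2d4 had 3.52 ± 0.903, 3.97 ± 0.867 and 3.71 ± 1.13. Of the alpha2delta genes, Cacna2d1 is then the one that reached an unadjusted p under 0.05. Cacnb2 had 52.4 ± 4.32, 52.1 ± 6.94 and 50.1 ± 3.97, and Cacng4 had 52.1 ± 7.64, 55.7 ± 12.3 and 55.2 ± 5.87. In Scn4b, whose protein is tied to resurgent sodium current, the spread was widest. Scn4b had 382 ± 97.9, 399 ± 193 and 382 ± 106, with 187 to 650.2 in APP/PS1 mice alone. Scn7a had 4.59 ± 1.04, 4.01 ± 1.40 and 4.22 ± 0.391, and Scn9a had 6.56 ± 1.45, 6.57 ± 2.23 and 7.91 ± 2.31.

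The sexes were compared by the interaction of sex and genotype. It was called for 0 of the 36 genes in APP/PS1/FTnKO against APP/PS1 and 0 in APP/PS1 against WT mice, with 0% of all genes called in either, by edgeR, and DESeq2 called 0 of the 36. At an unadjusted p under 0.05 there were 3 and 5 of the 36 genes, where 3.32% and 4.05% of all genes reached it. Each sex and genotype had 2 or 3 mice.

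The genes that channels work with were given by lists, to be read against the 0.327%, 1.5% and 3.87% of all genes that edgeR called in the 3 comparisons and the 11.5%, 14% and 22.1% that had an unadjusted p under 0.05. Of 16 sodium channel partners, which include the ankyrin and spectrin scaffold of the initial segment, edgeR called 0 in APP/PS1/FTnKO against APP/PS1, 0 in APP/PS1 against WT and 1 in APP/PS1/FTnKO against WT mice. The call was Fgf13, a channel-binding fibroblast growth factor homologue, with 109 ± 8.05 CPM (SD, n = 5) in WT and 90.3 ± 8.87 (n = 6) in the knockout (-0.25, SE 0.065, adjusted p = 0.0409). Of 17 calcium channel partners 1 was called in each comparison with WT, in both Rims1, an active zone scaffold that tethers calcium channels. Rims1 was higher, with 248 ± 22.4 CPM in WT, 312 ± 35.9 in APP/PS1 (0.34, SE 0.081, adjusted p = 0.0408) and 337 ± 35.4 in the knockout (0.45, SE 0.081, adjusted p = 0.00618). At an unadjusted p under 0.05 there were 1, 4 and 4 of the 16 sodium channel partners in the 3 comparisons, of which 1, 3 and 3 were lower, and 3, 1 and 6 of the 17 calcium channel partners, of which 1, 0 and 4 were lower. In the sodium leak channel list, of which 4 of 7 genes passed the filter, the call was Unc80, a subunit of that channel, with 401 ± 48.2 in WT and 324 ± 19.8 in the knockout (-0.30, SE 0.072, adjusted p = 0.0302), and 0, 2 and 1 of its 4 genes, all lower, had an unadjusted p under 0.05. The last list held 7 genes, the AMPA receptor genes Gria1, Gria2, Gria3 and Gria4 and their partners Cnih2, Cnih3 and Dlg4. None of these 7 or of the 6 intracellular calcium release genes was called by edgeR in any of the 3 comparisons. At an unadjusted p under 0.05 there were 0, 2 and 2 of the 6 and 1, 2 and 1 of the 7. Those of the 7 were Cnih2 (lower) in APP/PS1/FTnKO against APP/PS1 and Cnih2 (higher) and Gria4 (lower) in APP/PS1 against WT mice. In APP/PS1/FTnKO against WT mice it was Dlg4 (lower).

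Markers of cell types moved with some of these values. The summed level of the 6 excitatory neuron markers was lowest in the knockout, at 936 to 1329 CPM (median 1134), against 1116 to 1846 (median 1362) in APP/PS1 and 1315 to 1917 (median 1404) in WT mice, with 0 of the 6 markers at 0 in all mice. In the knockout against WT all 6 had values below 0 and 2, Nrn1 and Slc17a7, were called lower. With this sum as a covariate, chosen after seeing the data, 0 channel genes were called in the knockout against WT, where 0.23% of all genes were, and their values were below 0 for 28 of 36, while that of Scn8a moved from -0.28 to -0.07 and that of Cacna1g from -0.24 to -0.03. Over all alternatives the value nearest to 0 in that comparison was -0.06 for Cacna2d1 and -0.11 for Scn2a and Cacna1c. None of these came from dropping a mouse in turn. In APP/PS1/FTnKO against APP/PS1 mice 2 of the 6 markers had values below 0, both at an unadjusted p under 0.05 (Nrn1 at -0.24 and Slc17a7 at -0.38), with a median of 0.02 over the 6, and with the sum as a covariate 20 of the 36 channel genes had values below 0, against 27 without it and 51% of all genes. In APP/PS1 against WT mice all 6 had values below 0 (median -0.14), as had all 7 interneuron markers (median -0.08). With the excitatory sum as a covariate the channel values there were below 0 for 30 of 36 genes with a median of -0.08, against 28 of 36 and -0.08 without it, and the part of the interneuron markers was not tested. The interneuron markers had 0 edgeR calls in the 3 comparisons. In APP/PS1/FTnKO against APP/PS1 mice 0 of the 7 had values below 0 (median 0.04), and 1 had an unadjusted p under 0.05. Of the 5 microglia markers 3 were called higher in APP/PS1 and 1 in the knockout against WT mice, with summed levels of 392 to 616 CPM in APP/PS1, 298 to 479.6 in the knockout and 295 to 331 in WT mice. Of the 5 astrocyte markers Gfap was called higher in both, with sums of 1345 to 2544 in APP/PS1, 1184 to 2226 in the knockout and 1057 to 1178 in WT mice. In APP/PS1/FTnKO against APP/PS1 mice all 5 microglia markers had values below 0 (median -0.26), 3 of them at an unadjusted p under 0.05. Of the 5 astrocyte markers 4 did so (median -0.10), 1 of them at such a p, and 0 markers of either list were called. None of the markers of these glia was at 0 counts, and their part in the channel values was not tested.

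The striatal markers marked a second difference between mice that was not tied to genotype. The sum of 6 genes known from striatum was 514 to 1533 CPM over the 17 mice, and spanned 514 to 1227 in the knockout, 584 to 1533 in APP/PS1 and 587 to 1205 in WT mice. Over the 17 mice, which were compared after seeing the data, levels of the 36 genes on a log2(CPM + 0.5) scale were related to the log2 sums of the striatal and excitatory markers, with p from 100000 permutations of the mice adjusted over 34804 relations of all tested genes. With the striatal sum 7 channel genes passed with a positive relation and 3 with a negative one, where 2.67% and 0.988% of all genes did so. With the excitatory sum 9 passed with a positive and 3 with a negative relation, where 4.69% and 2.83% did so. The sums of both lists were themselves related, with a Pearson's r of -0.56.

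Scn4b followed the striatal sum most closely. Its r was 0.978 (permutation p = 1e-05, the smallest the permutations can give, adjusted p = 0.00223) and its Spearman's rho 0.917 (permutation p = 1e-05, adjusted p = 0.0043). Without the 2 mice farthest from the median sum r was 0.960, and within WT, APP/PS1 and APP/PS1/FTnKO mice it was 0.984, 0.995 and 0.984. The mouse with the lowest Scn4b, APP/PS1/FTnKO mouse 19720 with 174 CPM, also had the lowest sum, and the mouse with the highest, APP/PS1 mouse 19554 with 650.2 CPM, the highest.

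Others rose with the same sum. Cacnb2 had an r of 0.856 (permutation p = 1e-05, adjusted p = 0.00223) and a rho of 0.873 (permutation p = 1e-05, adjusted p = 0.0043), and r was 0.773 without the 2 farthest mice and 0.734, 0.963 and 0.801 within WT, APP/PS1 and APP/PS1/FTnKO mice. Cacng4 had an r of 0.848 (permutation p = 4e-05, adjusted p = 0.00409) and a rho of 0.828 (permutation p = 0.00012, adjusted p = 0.0129), with 0.918 without those mice and 0.945, 0.860 and 0.852 within the genotypes in that order. Cacna2d2, with an r of 0.866 and a rho of 0.657 (permutation p = 6e-05 and 0.00501, adjusted p = 0.00517 and 0.0855) and Cacna2d4, with 0.695 and 0.524 (permutation p = 0.00204 and 0.0328, adjusted p = 0.0413 and 0.214) passed by r but not by rank, and without the 2 farthest mice their r was 0.812 and 0.632. Cacna2d3 passed by both, with 0.786 and 0.765 (permutation p = 0.00022 and 0.00054, adjusted p = 0.0113 and 0.0282), but its r fell to 0.535 without those mice and was 0.436 within WT mice, against 0.859 and 0.917 within the other genotypes. Cacna1d fell as the sum rose, with an r of -0.76 and a rho of -0.72 (permutation p = 0.0003 and 0.00148, adjusted p = 0.0134 and 0.0464), as did Cacna1g and Cacnb3 by r (-0.72 and -0.68, permutation p = 0.00106 and 0.00199, adjusted p = 0.0279 and 0.0407), whose rho did not pass. Without the 2 farthest mice r was -0.62 for Cacna1d, -0.66 for Cacna1g and -0.62 for Cacnb3, and within WT mice that of Cacna1d was -0.37.

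Several genes with low values in the knockout against WT rose with the excitatory sum, which was itself lowest in the knockout. The permutations took no account of genotype, so these p also reflect differences between the genotypes. Cacnb3 had an r of 0.853 and a rho of 0.838 (permutation p = 3e-05 for both, adjusted p = 0.00353 and 0.00618), and within WT, APP/PS1 and APP/PS1/FTnKO mice its r was 0.854, 0.844 and 0.609, with 0.864 without the 2 mice farthest from the median sum. Cacna2d1 had 0.845 and 0.831 (permutation p = 3e-05 and 0.0001, adjusted p = 0.00353 and 0.012), and within the same genotypes its r was 0.934, 0.835 and 0.861, with 0.815 without those mice. Cacna1g, Scn3b and Scn8a also passed by both measures, with an r of 0.743, 0.738 and 0.733 (permutation p = 0.00069 to 0.00097, adjusted p = 0.0221 to 0.0265) and a rho of 0.814, 0.730 and 0.728 (permutation p = 0.00018 to 0.00132, adjusted p = 0.0161 to 0.0445). Without the 2 farthest mice their r was 0.695, 0.663 and 0.543. Within WT, APP/PS1 and APP/PS1/FTnKO mice r was 0.540, 0.747 and 0.827 for Cacna1g, 0.356, 0.578 and 0.688 for Scn3b, and 0.933, 0.547 and 0.775 for Scn8a. Cacna1i did not pass, with an r of 0.550 and a rho of 0.637 (permutation p = 0.0211 and 0.00764, adjusted p = 0.154 and 0.106), and within WT, APP/PS1 and APP/PS1/FTnKO mice its r was -0.34, 0.034 and 0.502, with 0.417 without the 2 farthest mice. Cacna2d2 fell as the excitatory sum rose, with an r of -0.76 and a rho of -0.81 (permutation p = 0.00036 and 0.00016, adjusted p = 0.015 for both), and r was -0.66 without those mice. Groups of 5 or 6 mice give these within-genotype values little precision.

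**Figure D4:**
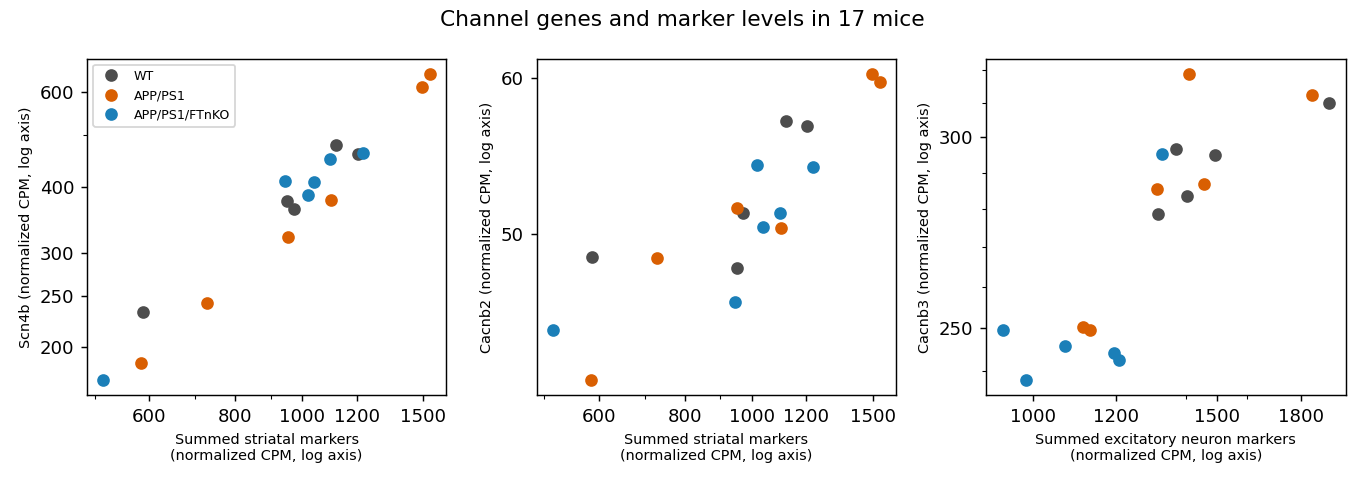
Normalized CPM of Scn4b and Cacnb2 against the sum of 6 striatal markers, and of Cacnb3 against the sum of 6 excitatory neuron markers, 1 point per mouse for 17 mice colored by genotype, log axes. Scn4b follows the striatal sum from 174 CPM in the lowest mouse to 650.2 in the highest in all genotypes (r = 0.978), and Cacnb3 is higher in mice with more excitatory neuron marker RNA (r = 0.853).

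Mouse 19622 was set beside the range of the other 17 mice, with all 18 scaled together. Of the 36 genes, 9 were above that range, where 28.6% of all genes were, 16 below, where 26.8% were, and 11 within it, so that 69.4% were outside, against 55.4% of all genes. At least 2-fold differences from the median of the 17 were found in 12 genes downward and 2 upward, 38.9% against 20.6% of all genes. With 1 mouse there is no test.

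The genes above the range included those of channels abundant in the cerebellum, whose markers were high in this mouse. Cacna1a, the P/Q-type channel of Purkinje cells, had 335 CPM against 158 to 195, Cacna1g had 299.6 against 93.7 to 160, and Scn1a had 346 against 126 to 197. Cacnb4, Cacng2 and Cacna2d2, genes in which recessive mutations give ataxic mice, had 379.6, 138 and 183 CPM against at most 284, 90.2 and 109. Each was above the highest of the other mice. In 19622 the excitatory neuron marker sum was 448 CPM against 939 to 1927 in the other mice, and the striatal sum 129 against 519 to 1537. The oligodendrocyte sum was 10229 against 3187 to 7183, and the interneuron sum, at 1063, lay within 825 to 1162. The part of these marker levels in the channel values was not tested. Below the range were Cacna1h, with 12.6 CPM against 92.5 to 139, Cacng3, with 12.4 against 89.2 to 126, Cacnb3, with 38.9 against 238 to 320, and Scn3b, with 20.8 against 104 to 150. Scn10a and Cacng6 had 0 counts, which allows up to 3, against 3 to 24 and 10 to 175 in the other mice. Scn8a, at 470.0 CPM against 314 to 503, and Cacna1i, at 112 against 99.9 to 147, were within the range, and Cacna1i was below each of the other 5 WT mice.

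**Figure D5:**
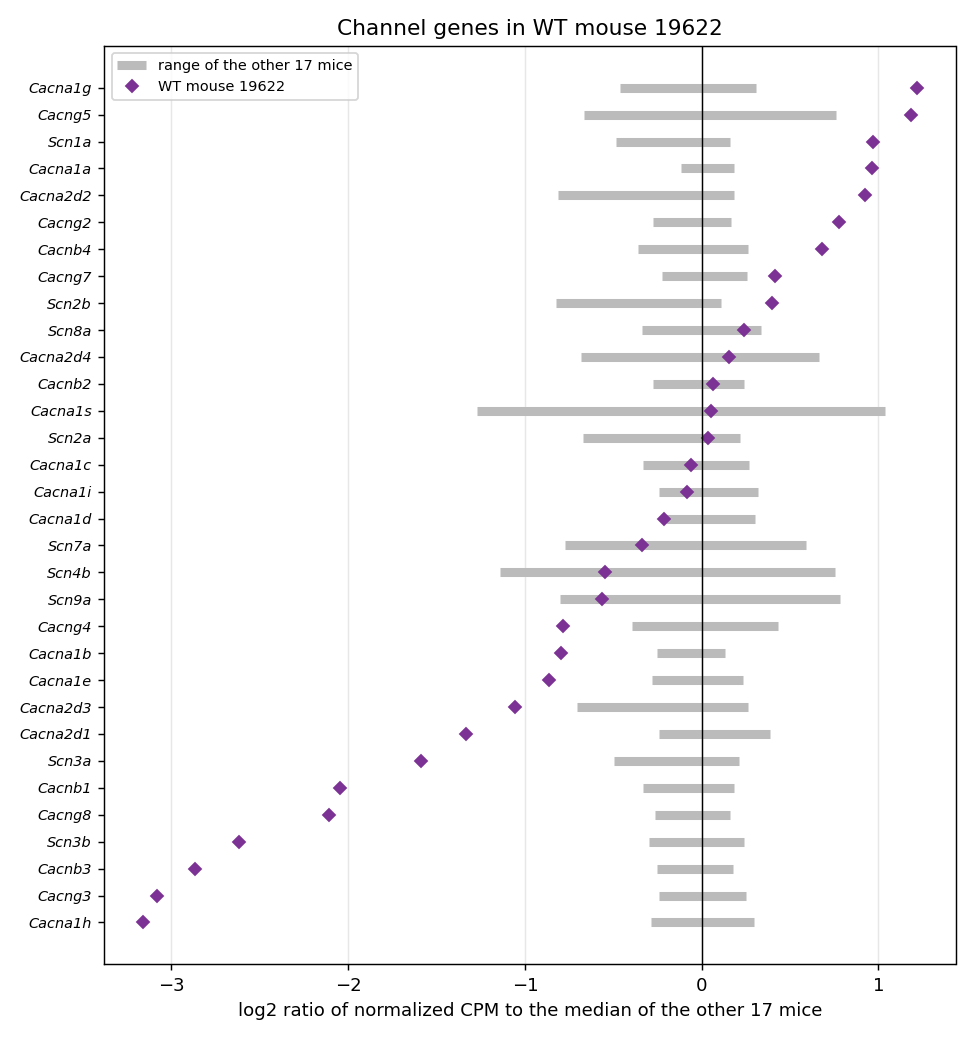
Ratio of normalized CPM in WT mouse 19622 to the median of the other 17 mice for 32 channel genes with a count in it, on a log2 axis, with grey bars for the range of the 17 mice and 2 genes with 0 counts left out. Cacna1g, Cacng5, Scn1a and Cacna1a lie highest, and Cacna1h, Cacng3, Cacnb3 and Scn3b lowest, all outside the bars.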

How the data were processed

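Poly-A RNA from the frontal cortex of 18 mice, 1 library each, was read in pairs by the authors, trimmed with Trimmomatic 0.33, aligned to GRCm38 with HISAT2 2.1.0 and counted with featureCounts. The deposited values are raw counts per gene without normalization. For featureCounts, version, strand setting and annotation: not given in the sources used here. With 15925432 to 21030935 counts per mouse, counting error matters mainly for weakly expressed genes. Each sample is a separate mouse, so p-values measure the spread between mice.

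The members and lists were chosen with earlier results of these data known. Named in full are the genes called in a comparison, those with an unadjusted p under 0.05 and the highest of most classes, and the rest by their levels. The test was the quasi-likelihood F test of edgeR 4.0.16 (R 4.3.3), after TMM scaling and filterByExpr at a minimum of 10 counts, in 1 model of sex and genotype over the 3 genotypes, with Benjamini-Hochberg adjustment over all genes tested and a threshold of 0.05. WT mouse 19622 was left out of that fit. The methods exclude 1 WT outlier as well, but do not name the mouse. Normalized CPM divide the deposited counts by the TMM-scaled library size. Exon lengths and positions came from GENCODE M21, which held 99.4% of the genes. Of the 40 channel genes, 11 share exon bases with another gene, 10 of them on the opposite strand and Cacng8 on the same, and if strand was not used in counting their reads cannot be told apart.

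As alternatives, 19622 was put back, every mouse was dropped in turn, DESeq2 1.42.0 or limma-voom (3.58.1) replaced edgeR, RLE replaced TMM, the filter was removed or raised to 50 counts, the sex term was dropped, the RNA integrity number was added, or the fit held only the pair of genotypes compared. The marker covariates, the fit without the 2 mice of lowest RNA integrity and the relations with marker sums were added after seeing the data. The scripts were tested on simulated data. Counts over the channel genes include 2 genes whose own values are not reported here. Relations were computed in Python 3.11.15 with NumPy 2.4.6.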

Additional observations from a re-analysis of the deposited data

Results flagged for a closer look

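In each genotype of the 17 mice the highest and lowest value of 34 of the genes were checked with Dixon's test for a mouse far from the others, which gave 12 of 102 groups, 11.76%, where the same test gave 5.99% of groups over all genes tested and chance gives about 1 in 20 for a single group. The groups share the same 17 mice and are not independent. APP/PS1/FTnKO mouse 19720 gave 6 of the 12, and 10.9% of those over all genes. Its values were the highest of the 6 mice for Cacna1g (158 CPM, next 119), Cacna1d (110.5, next 90.6) and Cacnb3 (295, next 249.4), and the lowest for Cacna2d2 (65.5, next 96.1), Scn1a (125, next 169) and Scn4b (174, next 386). This mouse had the lowest striatal marker sum of the 17, at 514 CPM, and the other 5 of its genotype had 946 to 1227.

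APP/PS1 mouse 16975 gave 3, and 14.4% of those over all genes, with the highest Cacna1s (2.98 CPM, next 1.80) and Cacng6 (10.9, next 1.76) and the lowest Scn2b (168, next 261). Its striatal marker sum was 584 CPM, the lowest of its genotype. The part of this in these values was not tested.

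WT mouse 19718 had the highest Cacnb4 (282 CPM, next 257) and Scn7a (6.40, next 4.57) of the 5 WT mice. APP/PS1/FTnKO mouse 16974 had the highest Scn9a, at 12.4 CPM against 7.86 for the next of its genotype.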

How the results depend on the processing

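The count of channel genes called in APP/PS1/FTnKO against APP/PS1 mice, 0 by edgeR, was 1 with DESeq2 (Scn10a), with the RNA integrity number as a covariate (Cacnb1) and with the striatal marker sum as a covariate (Cacnb3), where 1.38%, 1.5% and 0.752% of all genes were called against 0.327%, and stayed at 0 with each mouse left out (0.0578% to 0.467% of all). The count of 1 in APP/PS1 against WT mice was 0 with all 18 mice by edgeR and by DESeq2, with the RNA integrity number as a covariate and without the 2 mice of lowest RNA integrity, where 1.2%, 2.07%, 0.482% and 1.06% of all genes were called against 1.5%, and 0 to 1 with each mouse left out (0.706% to 2.68% of all). The count of 1 in APP/PS1/FTnKO against WT mice was 5 with DESeq2 (7.67% of all genes, against 3.87%), with only the 2 genotypes (5.05%) and with the striatal sum as a covariate (4.92%, with 4 lower and 1, Cacna2d2, higher), 4 without a filter (2.93%), 3 with the stricter filter (5.1%), 2 with DESeq2 on 18 mice (5.1%), without the sex term (4.19%) and without the 2 mice of lowest RNA integrity (2.7%), 0 with the excitatory sum as a covariate (0.23%), and 1 to 6 with each mouse left out (1.17% to 5.69%). The causes were not tested. In the 3 comparisons 27, 28 and 29 of the 36 genes had values below 0, and with 18 mice 27, 19 and 21.

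Over all 36 genes, 11 and 10 values changed sign with 19622 back among the WT mice in APP/PS1 and APP/PS1/FTnKO against WT mice, by edgeR, and 2 between the transgenic genotypes. With the excitatory sum as a covariate 15 changed sign in APP/PS1/FTnKO against APP/PS1, 4 in APP/PS1 against WT and 11 in APP/PS1/FTnKO against WT mice, with the RNA integrity number 2, 9 and 5 did so in the same order, and with each mouse left out at most 8, 4 and 4. The single values followed under every alternative were those of genes with an unadjusted p under 0.05 in a comparison or with the highest level of their class, 10, 12 and 18 genes in the 3 comparisons. These changed sign in 28 cases, 14 of them with 19622 back, given first by edgeR and then by DESeq2. Among them, in APP/PS1 against WT mice, were Cacna1b (0.033 and 0.029, and 0.021 with the RNA integrity number) and Cacnb3 (0.20 and 0.19). Among the 18 in APP/PS1/FTnKO against WT mice they were Cacnb3 (0.035 and 0.027), Cacnb1 (0.013 and 0.0053), Cacna1h (0.072 and 0.064), Cacng7 (-0.013 and -0.019) and Cacna1b (0.11 and 0.10). Cacna1b, at -0.0053 in that comparison, was also above 0 with the excitatory sum (0.14), the RNA integrity number (0.053) and the stricter filter (0.0057), without the 2 mice of lowest RNA integrity (0.026), and without WT mouse 19718 (0.023) or 19053 (0.014) or APP/PS1/FTnKO mouse 16974 (0.019), 18943 (0.0035) or 19720 (0.00012), with -0.030 the lowest value as each mouse was left out. Among the 10 in APP/PS1/FTnKO against APP/PS1 mice Cacna2d1 (0.086) and Scn8a (0.10) did so with the excitatory sum, and Scn8a also without APP/PS1/FTnKO mouse 16974 (0.0036) or APP/PS1 mouse 19744 (0.0049), with -0.10 the lowest value as each mouse was left out. Of the values followed for these genes under an alternative, 1117 kept their side of the threshold and direction, 38 became called, 11 lost the call and these 28 changed sign. The interaction counts did not move. Levels per length were followed for the highest gene of each class, under RLE and with all 18 mice scaled together, and shifted by less than their SD. The exon lengths were the same in these settings, so they do not test the order by level per length.

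No paired analysis was possible because the labels give mouse numbers and no replicate numbers shared between genotypes. Counting error limits the genes near the filter, of which Scn10a had 3 to 24 counts per mouse.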

Other observations

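Cacna1i has 41 other tested genes within 1 Mb on chromosome 15. Of these 1, 1 and 4 were called in APP/PS1/FTnKO against APP/PS1, APP/PS1 against WT and APP/PS1/FTnKO against WT mice, where 0.327%, 1.5% and 3.87% of all genes were, and their median log2 fold changes were -0.06, 0.01 and -0.03. 

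Gamma subunit genes Cacng7, Cacng8 and Cacng6 lie side by side on chromosome 7, at chr7:3332955-3368221, chr7:3390683-3415648 and chr7:3424195-3435667 (GRCm38). In APP/PS1/FTnKO against APP/PS1 mice Cacng7 had 0.13 (edgeR adjusted p = 0.351) and Cacng8 had a 95% interval of -0.17 to 0.17. Cacng6 had -1.01 (SE 0.536, edgeR adjusted p = 0.499), with 10.9 CPM in APP/PS1 mouse 16975 and at most 1.76 in the others of its genotype. Per length Cacng7 had 76.0 CPM per kb, Cacng8 17.4 and Cacng6 0.844 over the 17 mice.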
